A study of Mus musculus with 3 samples.

Results

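Layer 6b spots were the array spots richest in 3 transcripts of the deepest cortical layer, Ctgf, Cplx3 and Nxph4, in sections of mouse brain. In each of 3 sections, barcodes with at least 3000 unique molecular identifiers (UMIs, counted molecules) were kept. The score was the sum over the 3 genes of ln(1 + counts per 10000), and the 50 highest barcodes of each section were taken. This gave 150 spots of the 10239 that passed the minimum, 50 of 3332 in O-Ex, 50 of 3498 in O-Ctrl and 50 of 3409 in Y-Ctrl. The sections came from C57BL/6J mice, were fresh frozen and cut at 10 µm, and were placed on a Visium array, which captures polyadenylated RNA under barcoded spots. O-Ex is the section labelled exercise, and O-Ctrl and Y-Ctrl are labelled control. No ages are given, and O and Y are taken here for old and young because the series is about exercise and aging. What the exercise was, how long it lasted and how many animals were used are not stated in the sources used here. The labels call the molecule nuclear RNA, but by the protocol a whole section lay on the array. A spot is a small piece of tissue that can hold several cells or parts of them, so the spots are called L6b spots by their rule and not as a cell type.

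Layer 6b is a thin sheet of neurons between cortical layer 6 and the white matter. Many of its neurons are survivors of the embryonic subplate, which forms before the other cortical layers and guides ingrowing thalamic axons. In the adult it is known for neurons that respond to orexin and to other neuromodulators. Ctgf (also called Ccn2) codes for a secreted matricellular protein of the CCN family. Cplx3 codes for a complexin, which binds the SNARE complex at synapses, and Nxph4 for a neurexophilin, a secreted ligand of alpha-neurexins. Their genes lie on chromosome 10 at 24595442 to 24598683 (Ctgf), chromosome 9 at 57599992 to 57606281 (Cplx3) and chromosome 10 at 127525473 to 127534559 (Nxph4) in mm10.

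Upstream sequence was looked up for the 3 genes of the score and the 12 genes most enriched in L6b spots, and 7 of these 15 matched a RefSeq promoter entry (GRCm38.p6). The 250 bases before the start are shown for Cplx3, which chose the spots, and for Nr4a2 and Rai14, which were higher in L6b spots in every spot comparison below. Nr4a2 codes for the orphan nuclear receptor Nurr1, and Rai14 for an ankyrin-repeat protein that binds actin. Capitals mark AGGTCA, the core letters bound by many nuclear receptors, on either strand (TGACCT is the same motif on the other strand). The regions are chr9:57606282-57606531 for Cplx3, chr2:57124004-57124253 for Nr4a2 and chr15:10713541-10713790 for the second of 2 Rai14 entries, all transcribed from the minus strand.
Cplx3: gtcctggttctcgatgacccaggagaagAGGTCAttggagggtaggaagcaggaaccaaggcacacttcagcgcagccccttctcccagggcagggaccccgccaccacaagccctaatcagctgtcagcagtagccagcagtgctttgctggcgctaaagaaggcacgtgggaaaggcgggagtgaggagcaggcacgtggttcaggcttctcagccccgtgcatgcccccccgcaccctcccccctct
Nr4a2: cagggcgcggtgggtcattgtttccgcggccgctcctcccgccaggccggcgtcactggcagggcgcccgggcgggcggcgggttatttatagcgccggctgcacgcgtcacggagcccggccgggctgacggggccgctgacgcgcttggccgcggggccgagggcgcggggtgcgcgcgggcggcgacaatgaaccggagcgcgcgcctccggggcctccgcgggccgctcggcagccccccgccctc
Rai14: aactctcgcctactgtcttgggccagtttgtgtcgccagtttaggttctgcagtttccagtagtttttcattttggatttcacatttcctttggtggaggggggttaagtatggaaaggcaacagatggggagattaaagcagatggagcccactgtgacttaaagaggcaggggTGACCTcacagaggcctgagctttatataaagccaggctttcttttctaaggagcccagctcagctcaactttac
The motif lay 222 bases before the start of Cplx3 and 75 bases before that of the second Rai14 entry. It was not in the first Rai14 entry, nor in the other 5 matched genes. Over all 27025 genes of the table, 15.8% held it in a window of the same length. The longer motif AAAGGTCA, to which Nr4a2 protein binds as a monomer and which contains the shorter one, was in 0 of the 7 genes and in 1.55% of all genes. TCACAC, a core motif of T-box factors such as Tbr1, was in 1 of the 7 (Tmem40, in the second of 2 entries) and in 13.9% of all genes.

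Values are counts summed over the spots of a set in a section and given as CPM, that is, scaled to the same total over all genes in every sum. The sections held 53196124 (O-Ex), 58234443 (O-Ctrl) and 62348064 (Y-Ctrl) UMIs, of which the L6b spots held 920732, 1046768 and 1036745. L6b spots were deeper than the sections at large, with a median of 18943.5 UMIs in O-Ex, 21221.5 in O-Ctrl and 19446 in Y-Ctrl, against 13685, 14900 and 15718 over all kept spots. They ranged from 3324 to 41337 UMIs, and the shallowest held 3604 in O-Ex, 7656 in O-Ctrl and 3324 in Y-Ctrl. As the score is scaled by depth, a shallow spot could enter on few marker UMIs. The Y-Ctrl spot of 3324 UMIs held 1 of Ctgf and 1 of Cplx3. Mitochondrially encoded transcripts took 14.6%, 15.9% and 15.2% of the UMIs of L6b spots, against 17.8%, 19.8% and 19.8% in the rest of O-Ex, O-Ctrl and Y-Ctrl. The 3 sections share all their barcodes, as an array design has a fixed set, and between 5 and 8 members of a section had a barcode that was also a member in another.

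The genes that chose the spots are described first, with no test. Summed over the L6b spots, Ctgf stood at 542 CPM in O-Ex, 558 in O-Ctrl and 537 in Y-Ctrl, against 12.2, 12.8 and 9.44 CPM in the rest of those sections. Cplx3 had 325, 382 and 388 CPM in L6b spots, against 9.23, 10.2 and 10.7 in the rest. Nxph4 was scarcer, with 58.6, 58.3 and 64.6 CPM against 1.98, 3.18 and 2.19. All 50 members of each section held a Ctgf UMI, between 48 and 50 held Cplx3, and 28 (O-Ex), 32 (O-Ctrl) and 34 (Y-Ctrl) held Nxph4. All 3 transcripts were counted in 26, 32 and 33 members and in 6, 11 and 3 other spots of O-Ex, O-Ctrl and Y-Ctrl. The score fell off without a step at the border. The last spot taken had 2.44 in O-Ex, 2.62 in O-Ctrl and 2.32 in Y-Ctrl, and the first spot left out had 2.43, 2.62 and 2.29.

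**Figure D1:**
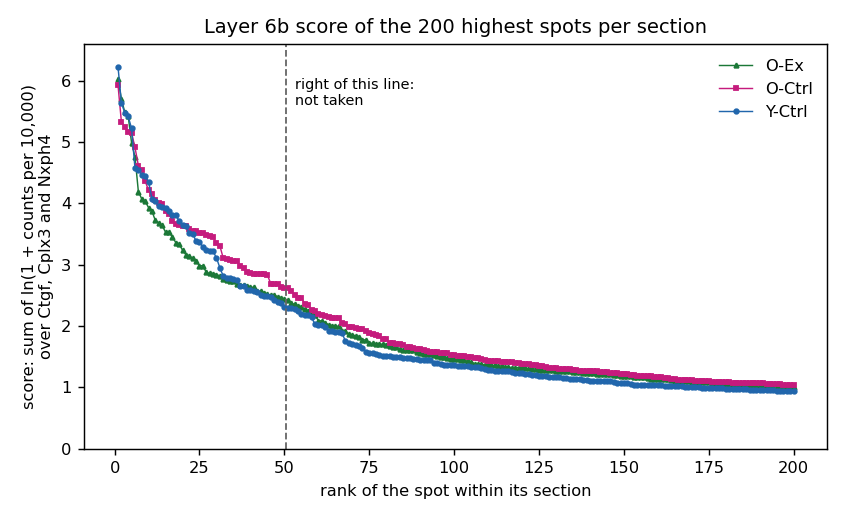
Layer 6b score (y axis, a sum of natural logs) of the 200 highest spots of each section (x axis, rank), with a dashed line after the 50th. Scores run from about 6 at rank 1 (6.02 in O-Ex, 5.93 in O-Ctrl, 6.23 in Y-Ctrl) to 1.46, 1.53 and 1.36 at rank 100, with no gap at the line.

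Co-occurrence of the 3 markers was checked by leaving out each in turn. Spots were chosen by 2 genes, and the third was read in those spots. Between 33 (Y-Ctrl, Ctgf left out) and 48 (O-Ctrl, Nxph4 left out) of them a section were also members under the 3-gene rule. The check cannot show that the spots lie in layer 6b. All 3 markers belong to the rule, members were chosen with earlier results known, and spot positions were not used. Spots chosen by Cplx3 and Nxph4 had 475 (O-Ex), 491 (O-Ctrl) and 468 (Y-Ctrl) CPM of Ctgf, against 14.8, 14.4 and 11.5 CPM in the rest, a 34.2-fold difference (log2 5.10, SE 0.09). Cplx3 was 29.7-fold higher in spots chosen by Ctgf and Nxph4 (log2 4.89, SE 0.10), with 277, 351 and 366 CPM against 10.1, 11.2 and 11.3. Nxph4, the gene with the fewest counts, was 20.3-fold higher in spots chosen by Ctgf and Cplx3 (log2 4.35, SE 0.23), with 48.8, 54.4 and 58.1 CPM against 2.18, 3.27 and 2.31. Its edgeR adjusted p was 3.1e-79, and those of the other two were below the smallest value the software writes. The left-out gene ranked 1st (Ctgf), 1st (Cplx3) and 2nd (Nxph4) by fold change among the called genes. Tests here and below used edgeR's quasi-likelihood test on sums per spot set and section, with section as a block, 3 sections and Benjamini-Hochberg adjustment over all genes fitted, and a gene is called at an adjusted p under 0.05. The sections are of different groups and the block leaves few degrees of freedom, so the p-values rest on a spread pooled over genes. Spots were not treated as replicates.

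The comparison with the rest of the section asked which other genes marked the L6b spots. Most genes listed for layer 6b and for layer 6 corticothalamic neurons were higher, every upper layer and meningeal fibroblast gene listed was lower, and every myelin gene listed was higher. Of 15148 genes tested, 1175 were higher (7.76%) and 1325 lower (8.75%) in L6b spots. Without O-Ctrl the count of higher genes was 750. The rule genes took no part. A list named for other layer 6b and subplate genes held 20, of which 17 could be tested, 12 were higher and 0 lower, with a median log2 of 1.22 against -0.04 over all genes. The list was chosen with results of these data known, so its direction is a description.

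Nxph3, a second neurexophilin, was the clearest of them. It had 150 CPM in O-Ex, 166 in O-Ctrl and 166 in Y-Ctrl L6b spots, against 11.3, 11.2 and 9.93 in the rest, and 39, 45 and 45 of the 50 members held a UMI. The groups of sums did not overlap, and the difference was 14.6-fold (log2 3.87, SE 0.12, edgeR adjusted p = 3.37e-224). Nr4a2 had 218, 156 and 152 CPM in L6b spots, against 31.5, 22.0 and 23.1 in the rest, a 6.74-fold difference (log2 2.75, SE 0.11, edgeR adjusted p = 4.71e-146). It is also known from the claustrum, so the other claustrum and endopiriform genes are of use beside it. Of 4 of these tested 2 were higher, Gnb4, a G protein beta subunit, at 2.59-fold and Synpr, a synaptic vesicle protein, at 1.29-fold, and 0 were lower. Whether some L6b spots lay in the claustrum or endopiriform nucleus was not tested, since spot positions were not used here.

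Ly6g6e, of the Ly6 family, was scarce, with 15.2, 34.4 and 28.0 CPM, against 1.65, 2.25 and 1.45 in the rest (14.2-fold higher, log2 3.83, SE 0.31). Drd1, the D1 dopamine receptor, was 4.74-fold higher (32.6, 22.0 and 21.2 CPM against 4.79, 6.13 and 4.62). Moxd1, a monooxygenase related to dopamine beta-hydroxylase, was 4.47-fold higher, with 22.8, 34.4 and 29.9 CPM in L6b spots against 7.44, 7.11 and 4.85. Lpar1, a lysophosphatidic acid receptor, was 2.33-fold higher, at 57.6, 72.6 and 69.4 CPM against 27.0, 28.1 and 28.9. The other called members were Rgs12, Tmem163, Svil, Gabra5, Cdh10 and Kcnab1, with Rgs12, a regulator of G protein signalling, the highest at 3.19-fold. Hcrtr2, the orexin receptor for which layer 6b is known, was close to the counting limit: 1.09, 3.82 and 3.86 CPM in L6b spots against 2.59, 2.25 and 1.78, and it was not called (log2 0.42, SE 0.60, edgeR adjusted p = 0.737). A change in it was not detectable at this depth.

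**Figure D2:**
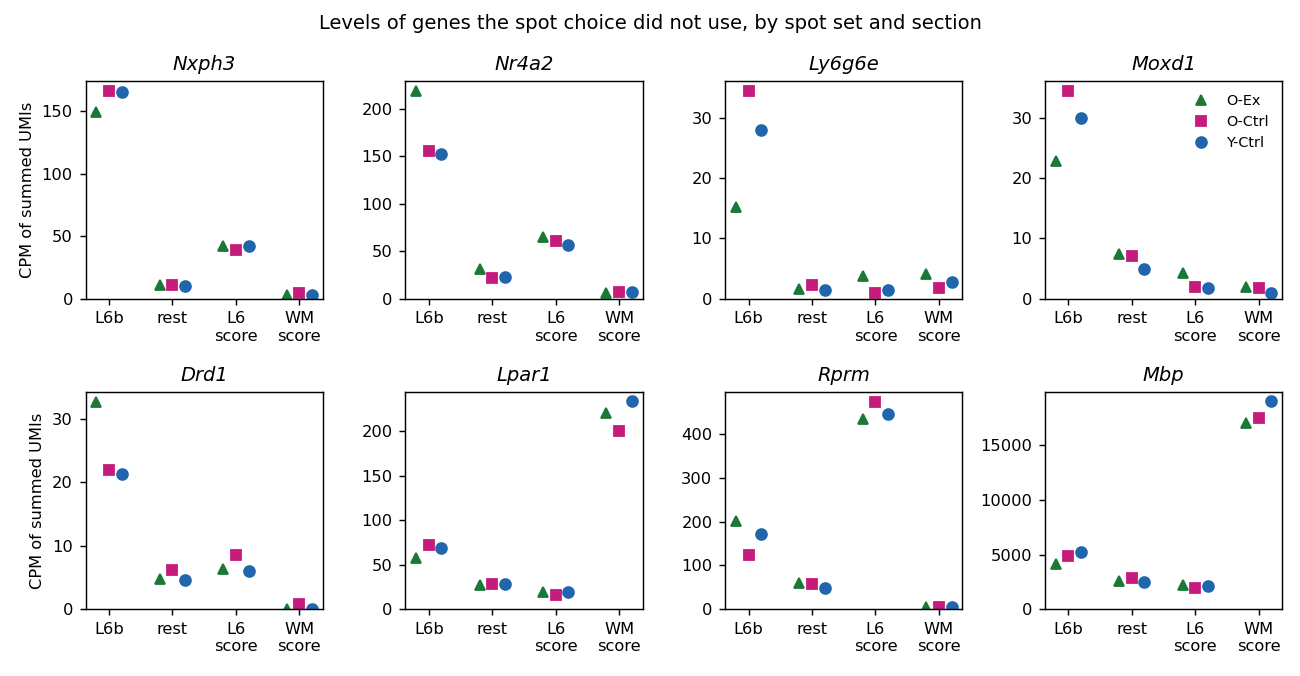
Levels (y axis, CPM of summed UMIs, from 0) of 8 genes that took no part in choosing L6b spots, by spot set (x axis), with 1 symbol for each section. L6 score and WM score are the layer 6 and white matter comparison spots; Rprm was among the genes that chose the L6 score spots. Nxph3, Nr4a2, Ly6g6e, Moxd1 and Drd1 were highest in L6b spots in every section, and Lpar1 and Mbp lay between their levels in the rest of the section and in white matter spots.

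By size of the fold change alone, the 12 highest genes with at least 150 counts also took in scarce transcripts. Tnmd (tenomodulin) had 4.34, 30.6 and 30.9 CPM in L6b spots of O-Ex, O-Ctrl and Y-Ctrl, against 0.982, 0.965 and 0.831 in the rest (log2 4.49, SE 0.38). Only 3, 9 and 11 members held a Tnmd UMI, so its counts came from a minority of the spots. Mup5 (log2 4.27), a major urinary protein gene of a family with near-identical copies, Tmem40 (log2 3.81), the predicted gene Gm40518 (log2 3.44), the keratin gene Krt80 (log2 3.23), the embryonic myosin gene Myh3 (log2 2.85) and the beta-defensin gene Defb1 (log2 2.77) were of the same kind, none above 38.0 CPM in a section. Sla, an adaptor of Src-family signalling, had 41.3, 22.9 and 28.9 CPM against 3.59, 3.59 and 3.89 (log2 3.02), and Rai14 had 33.7, 39.2 and 46.3 CPM against 6.93, 4.75 and 4.12 (log2 2.93).

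The 8 lowest genes under the same rule had no count in any L6b spot, so their fold is a bound set by 3 counts over the sections. Igkc, an immunoglobulin light chain constant gene, was at least 16.2-fold lower, but 49.4 CPM in the rest of O-Ex stood against 0.733 in O-Ctrl and 2.31 in Y-Ctrl. It was not called without O-Ex (edgeR adjusted p = 0.22). Eps8l2, with 11.3, 11.7 and 12.8 CPM in the rest, was another, and Tmem72, Slitrk6, Lbhd2, Lum, Cyp26b1 and Tekt1 were at least 7.16-fold to 4.88-fold lower. Of the genes tested, 422 had no count in L6b spots and 57 of them were called.

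**Figure D3:**
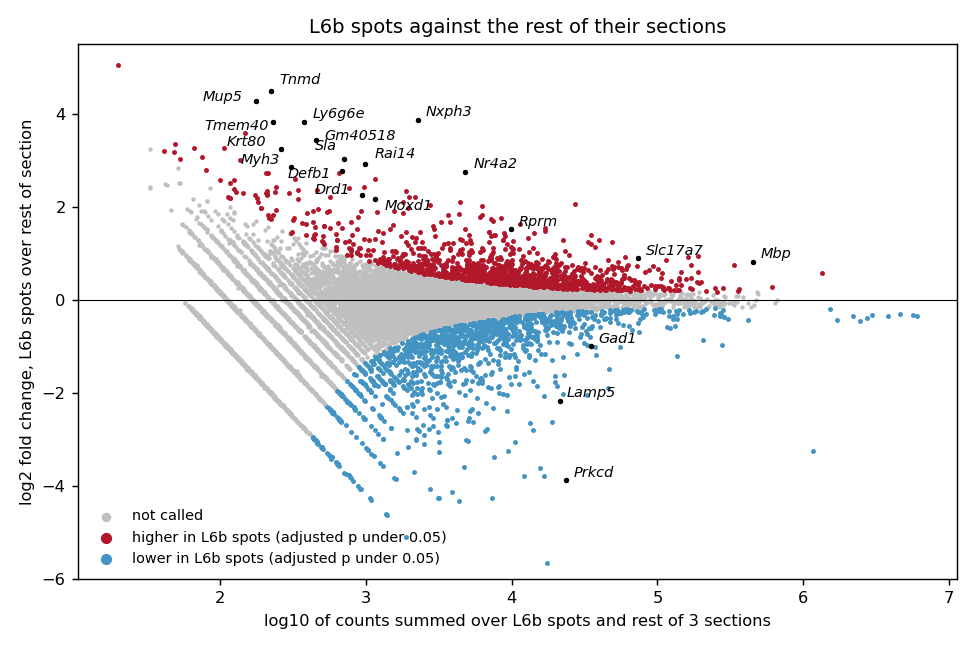
Log2 fold change of L6b spots over the rest of the section (y axis) against log10 of the counts summed over all 6 sums (x axis), 1 point a gene, for the 14726 genes with a count in L6b spots. Red and blue mark genes called higher and lower, and black marks those with a name. Nxph3 and Nr4a2 combine large folds with many counts, and Tnmd and Mup5 lie at the sparse end.

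Layer 6 and upper layer genes went opposite ways, and layer 5 genes were mixed. Of 10 layer 6 corticothalamic genes 8 were higher and 0 lower in L6b spots than in the rest (median log2 1.29). Tle4, a transcriptional corepressor, had 127, 137 and 164 CPM against 37.6, 33.5 and 33.1 (4.04-fold), and Hs3st4, a heparan sulfate sulfotransferase, was 3.56-fold higher. Rprm (reprimo) was 2.86-fold higher, with 201, 124 and 172 CPM against 61.1, 58.8 and 49.4. All 8 upper layer genes were lower (median log2 -1.53), among them Lamp5 (30.4, 25.8 and 29.9 CPM against 113, 127 and 139, 4.51-fold lower) and Cux2, a homeobox gene of layers 2 to 4 (2.74-fold lower). Of 7 layer 5 genes Bcl11b and Pcp4 were higher and Fam84b, Tox and Etv1 lower (median log2 -0.42). Slc17a7, the vesicular glutamate transporter of cortical neurons, was counted in all 150 members and was 1.86-fold higher (855, 848 and 732 CPM against 455, 428 and 403).

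Receptors for neuromodulators were read as a list of 23, of which 9 were higher and 3 lower (median log2 0.52). Besides Drd1 the higher ones were Chrna5, a nicotinic receptor subunit (4.95-fold, at 10.9, 3.82 and 5.79 CPM), the neurotensin receptor gene Ntsr1 (3.74-fold), Adra2a, the alpha-2A adrenergic receptor (3.63-fold), Htr2a, the serotonin 2A receptor (2.75-fold), Cckbr (2.33-fold), Chrna4 (2.32-fold), Chrm3 (2.16-fold) and Adora1 (1.62-fold). Adra2a had 35.8, 43.9 and 32.8 CPM against 11.2, 9.90 and 9.34. Lower were Crhr1 (3.52-fold), the serotonin receptor gene Htr2c (2.82-fold) and Ntsr2. Of 10 GABA-A receptor subunits 2 were higher, among them Gabra5 (2.01-fold), and 4 were lower, among them Gabrd (2.34-fold).

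The families of the rule genes did not move as wholes. Cplx1, the main complexin of many neurons, was 1.61-fold lower, with 275, 276 and 280 CPM against 409, 450 and 453, and Cplx2 was not called (log2 -0.00, SE 0.09). Nxph1 was 1.89-fold lower (13.0, 18.2 and 17.4 CPM against 28.6, 29.9 and 32.0) beside the higher Nxph3. In the CCN family Nov (Ccn3) was 2.18-fold higher, with 191, 155 and 190 CPM against 90.5, 77.9 and 73.5, and Wisp1 (Ccn4) was 4.89-fold higher at only 5.43, 4.78 and 6.75 CPM.

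Transcripts of other cell types were counted in these spots too. All 12 myelin and oligodendrocyte genes were higher than in the rest (median log2 0.72), and their summed level was 10505 CPM in O-Ex, 13272 in O-Ctrl and 13434 in Y-Ctrl, against 7085, 7475 and 6849. Mbp (myelin basic protein) was 1.76-fold higher. Among members the myelin share ran from 0.0822% to 4.92% of UMIs, with medians of 0.746%, 0.901% and 0.932%. All 8 meningeal fibroblast genes were lower (median log2 -2.47), as were 5 of 8 endothelial, 4 of 7 mural and 5 of 8 astrocyte genes, with Slc1a2, the astrocytic glutamate transporter, the 1 astrocyte gene that was higher (1.24-fold). Of 11 GABA interneuron genes 6 were lower, among them Pvalb (3.74-fold) and Gad1, at 105, 124 and 87.8 CPM against 224, 212 and 187, and Npy was higher (1.35-fold). Of 11 genes of other forebrain regions 7 were lower, with Prkcd, which marks thalamus, at 15.2, 7.64 and 6.75 CPM against 110, 116 and 192 (14.7-fold lower). Fewer cells of a type and less RNA per cell cannot be told apart in such sums. Of the remaining lists, 12 microglia genes gave 0 higher and 1 lower, 7 reactive astrocyte genes 0 and 3, 13 interferon and MHC class I genes 0 and 5, 12 matrix genes 0 and 5, 15 immediate early genes 2 and 0, and 16 glutamatergic and synaptic genes 5 and 6.

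**Figure D4:**
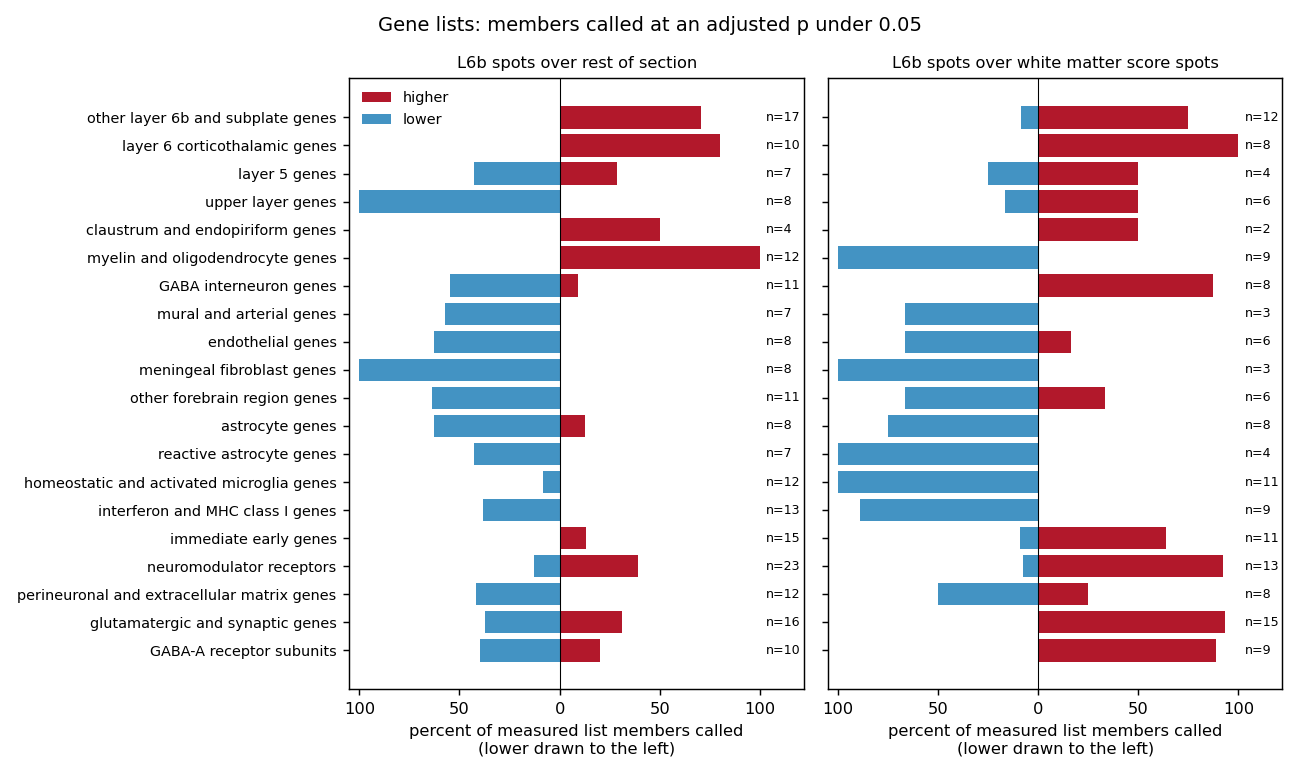
Share of each list's measured genes (x axis, percent, n at the right) that was called higher (red, to the right) or lower (blue, to the left) in L6b spots than in the rest of the section (left panel) and than in white matter score spots (right panel). The 12 myelin genes were all higher than in the rest, and the 9 that could be tested were all lower than in white matter score spots.

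Members differed among themselves. Within a section, the share of UMIs from the other layer 6b list had a Spearman correlation with the score of 0.10 in O-Ex, 0.53 in O-Ctrl and 0.50 in Y-Ctrl (50 spots each, which share a library). The share of GABA interneuron genes had -0.43, -0.43 and -0.32, and depth had 0.22, 0.25 and 0.14. Sst was uneven: 1 spot held 41.0%, 26.2% and 27.2% of the Sst counts of the members of O-Ex, O-Ctrl and Y-Ctrl. Over all spots of a section, the genes whose level was most like the score were ranked by the lowest of their 3 within-section Spearman correlations, over 7167 genes. They were 3110035E14Rik (0.22), Ttc9b (0.21), Tbr1 (0.21), Ipcef1 (0.20), Nxph3 (0.20), Mpped1 (0.20), Nov (0.19), Pde1a (0.19), Nr4a2 (0.18) and Slc17a7 (0.17). Tbr1 is a T-box factor of early-born deep cortical neurons. The values are low and the points share library and depth, so they only order the genes.

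The next comparison set the L6b spots beside their neighbour above, the 100 other spots a section highest in a score over the layer 6 genes Rprm, Syt6 and Foxp2. Of 9964 genes 537 (5.39%) were higher and 411 (4.12%) lower in L6b spots, and without O-Ctrl 310 and 201 were. Those comparison spots were not all cortex: 35 of 100 in O-Ex, 33 in O-Ctrl and 16 in Y-Ctrl had at least 3 UMIs of Tcf7l2, a transcription factor gene of thalamus, against 1, 0 and 1 of the 50 L6b spots. The 8 lowest genes, Ctxn3, Cbln4, Slc17a6, Tcf7l2, Calb2, Cbln2, Cbln1 and Zic1, include this gene and Slc17a6, the glutamate transporter of thalamic neurons. After this was seen, Slc17a7 was added to the score, and 1, 0 and 2 of 100 spots had that much Tcf7l2. Against this second set 816 of 10074 genes (8.10%) were higher and 624 (6.19%) lower. Of the genes called higher, 463 were called in both fits, 86.2% of the first set and 56.7% of the second. Of those called lower 254 were, 61.8% and 40.7%. Cbln4, Tcf7l2 and Calb2 were no longer called (edgeR adjusted p = 0.101, 0.608 and 0.0924).

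Against the layer 6 spots chosen with Slc17a7, the other layer 6b genes were again on the higher side, 11 of 12 tested being higher and 0 lower (median log2 1.70 against 0.01 over all genes), with the same counts, 11 and 0, against the first set. Nxph3 had 150 (O-Ex), 166 (O-Ctrl) and 166 (Y-Ctrl) CPM in L6b spots, against 40.1, 36.9 and 43.8 in these layer 6 spots, a 4.06-fold difference (log2 2.02, SE 0.12), and 3.87-fold against the first set. Nr4a2 and Rai14 were 2.85-fold and 3.75-fold higher than in the first set. Among genes with at least 150 counts, Lpar1 had the highest fold against the second set, 4.49-fold (57.6, 72.6 and 69.4 CPM against 17.4, 11.9 and 16.1). Corticothalamic genes split: Tle4 and Hs3st4 were higher and Crym and Garnl3 lower, of 7. Of the receptors Drd1, Htr2a, Chrna4, Adra2a and Adora1 were higher and Htr2c and Chrm1 lower, of 15. Htr2a, at 33.7, 40.1 and 38.6 CPM against 10.6, 8.53 and 9.65 in the first set (3.88-fold, log2 1.96, SE 0.25), was the highest gene there with at least 150 counts. The scarcer Ly6g6e and Moxd1 had larger folds against both sets, log2 3.64 and 3.41 against the first and 3.19 and 3.22 against the second. Upper layer genes were lower in L6b spots for 5 of 7 against the second set (median log2 -1.15) and 4 of 7 against the first (-0.64). Of the glutamatergic and synaptic genes 9 of 15 were lower against the second set, and 4 of 16 lower and 1 higher against the first. Whether adding Slc17a7 brought in spots of other cortical layers was not tested.

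Against layer 6 spots the myelin genes were higher whichever set was used, and counts of microglia and reactive astrocyte genes depended on the set. All 12 myelin genes were higher against both sets (median log2 1.71 and 1.32), and so was Apod, apolipoprotein D (4.22-fold against the second set, at 805, 1395 and 602 CPM against 287, 205 and 164). Of 11 microglia genes 8 were higher against the second set, but 3 against the first, where Trem2 and C1qa, both called in the second, were not (edgeR adjusted p = 0.594 and 0.126). Of 4 reactive astrocyte genes tested all were higher against the second set, with Gfap 3.97-fold and C4b 3.91-fold, and 2, the same Gfap and C4b, against the first. Of the 8 lowest genes against the second set, Slc30a3, the vesicular zinc transporter, was 9.43-fold lower (16.3, 11.5 and 4.82 CPM against 110, 129 and 70.3), Plk5 6.75-fold, and Fam19a1 and Fam19a2, which code for small secreted proteins, 6.23-fold and 6.11-fold. The others were Rasgef1c, Plxnd1, Grp and Nptxr. Of 12 immediate early genes 5 were lower, Egr3, Arc, Nr4a1, Junb and Egr1, whereas in the first set Arc alone of 11 was. These lists were read with the myelin level of the spots beside them, and its part in the result was not tested.

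Below layer 6b lies white matter, represented by the 100 other spots a section highest in a score over the myelin genes Mobp, Mag and Mal. Of 9148 genes 2678 (29.3%) were higher and 2786 (30.5%) lower in L6b spots, and single calls are to be read against these shares. Without TMM scaling the counts were 3521 and 2018, which moved the share of higher calls to 63.6% from 49.0%. The highest genes were Glra2, a glycine receptor subunit gene (63.0, 53.5 and 55.0 CPM against 2.01, 0 and 0, log2 6.00, SE 0.47), Cckbr (log2 5.41), Ipcef1 (log2 5.23), Nxph3 (log2 5.22), Hs3st2 (log2 5.19), Gsg1l (log2 4.94), Rprm (log2 4.63), Tbr1 (log2 4.59), Stx1a (log2 4.52), Nr4a2 (log2 4.42), Gm11549 and Gfra4. The lowest were C4b (82.5, 90.8 and 15.4 CPM against 1107, 964 and 98.1, log2 -3.72), Agt, Tnni1, Klk6, Galnt6, Tprn, Plxnb3 and Cldn11 (log2 -3.02). All 11 microglia genes and all 4 reactive astrocyte genes tested were lower. Lpar1, higher in L6b spots than in the layer 6 spots and the rest of the section, was 3.92-fold lower than in white matter spots (221, 200 and 234 CPM).

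Differences between sections were read within the L6b spots with 1 section a group. There is therefore no test, and the condition cannot be told apart from the animal or the section. Ratios are of CPM plus 5 for genes averaging 50 CPM or more in the compared L6b sums, and genes past 1.5-fold are counted. Brackets hold exact 95% Poisson intervals, which cover counting error only. The intervals of the 10 highest and 10 lowest genes of each comparison did not overlap in it. Those genes were picked by the ratios of the same counts, so this is no separate support for them. The same ratio over the rest of the section is given beside each, and both comparisons use O-Ctrl.

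O-Ctrl against Y-Ctrl addresses age. The complement gene C4b, the lipid carrier gene Apod and the 3 MHC class I pathway genes measured were higher in O-Ctrl, and the 3 immediate early genes measured were lower. Of 3226 genes 61 (1.89%) were at least 1.5-fold higher and 28 (0.868%) lower, against 12 (0.372%) and 1 (0.0310%) of the same genes over the rest of the sections, where sums are far deeper. With TMM scaling the counts were 46 and 44, so the split of directions depends on scaling. With 100 spots a section they were 37 and 17. Of the 10 highest genes named below 9 stayed past 1.5-fold with 100 spots, all but Hba-a1, and of the 10 lowest 5 did. Those 100 spots include the same 50, so this is no separate check of the ratios. With 25 spots Ttr (log2 0.46), Ly6c1 (0.28), Hba-a1 (0.52), Ighm (-0.46), Zyx (-0.49) and Srp19 (-0.58) fell short of that size. The other named genes stayed past it.

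C4b, a complement component whose reads can be shared with C4a, had 90.8 CPM [73.4 to 111] in O-Ctrl L6b spots and 15.4 [8.82 to 25.1] in those of Y-Ctrl (log2 2.23, rest 2.25). It was counted in 35 of the 50 spots in O-Ctrl and in 10 in Y-Ctrl. Apod had 1395 CPM in O-Ctrl and 602 in Y-Ctrl (log2 1.21, rest 1.02), AC149090.1 142 and 57.9 (log2 1.23, rest 1.18), and Ly6a and Ly6c1, related genes of vessel cells with close copies, 81.2 and 39.5 (log2 0.95, rest 1.22) and 99.4 and 49.2 (log2 0.95, rest 0.94). Itm2a, the third endothelial gene measured, went the other way, with 50.6 in O-Ctrl and 71.4 in Y-Ctrl (log2 -0.46, rest -0.46), and its intervals overlapped. H2-D1, an MHC class I gene with close copies, had 75.5 and 33.8 (log2 1.05, rest 0.40). Ptgds, prostaglandin D synthase, had 1468 in O-Ctrl and 446 in Y-Ctrl (log2 1.71, rest 0.47). All of these genes but Itm2a were higher in O-Ctrl over the rest of the section as well, H2-D1 and Ptgds by less than 1.5-fold.

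Ttr, transthyretin of the choroid plexus, had the largest ratio (1214 CPM in O-Ctrl, 147 in Y-Ctrl, log2 3.01), but 1 O-Ctrl spot with 1052 Ttr UMIs held 82.8% of it. Without the 5 members of each section highest in Ttr its log2 ratio was 0.49, and those of Ptgds and C4b were 1.41 and 2.20. O-Ex L6b spots were not lower in Ttr than those of O-Ctrl, though their richest member held 183 Ttr UMIs. The median member held 6 in O-Ex, 4 in O-Ctrl and 2.5 in Y-Ctrl, where the highest count was 10. The part of Ttr-rich spots in other differences between O-Ex and O-Ctrl was not tested. Hba-a1, a hemoglobin gene with a near-identical copy, was at 358 and 184 CPM (log2 0.94), and 1 spot held 48.0% and 41.9% of it in O-Ctrl and Y-Ctrl. Hrh3, the histamine H3 receptor, differed in that the rest of the section gave -0.00: L6b spots had 118 CPM [98.5 to 141] in O-Ctrl, against 57.9 [44.2 to 74.5] in Y-Ctrl (log2 0.97), while O-Ex had 123 [101 to 148]. Over the rest, the 3 sections had 52.9 (O-Ex), 56.3 (O-Ctrl) and 56.3 (Y-Ctrl) CPM, so Y-Ctrl L6b spots were near the level of the rest. With 100 spots its log2 ratio was 0.59. Fitted over the 3 sections together, Hrh3 was 1.75-fold higher in L6b spots than in the rest (edgeR adjusted p = 2.35e-11). That difference came from O-Ex and O-Ctrl, as Y-Ctrl had 57.9 CPM against 56.3. The p-value rests on a spread pooled over genes and does not measure how Hrh3 differed between sections.

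Among the lower genes were 3 that neurons induce with activity. Arc had 27.7 CPM [18.6 to 39.8] in O-Ctrl, against 83.0 [66.4 to 102] in Y-Ctrl (log2 -1.43, rest -1.03). Junb had 33.4 and 70.4 (log2 -0.97, rest -0.56), and Egr1 99.4 and 180 (log2 -0.83, rest -0.57). Of the immediate early list these 3 alone passed the minimum level, and all were lower by 1.5-fold or more. Junb and Egr1 did not reach that size with 100 spots (log2 -0.56 and -0.44). Gadd45a, a stress-response gene, had 38.2 CPM in O-Ctrl and 79.1 in Y-Ctrl (log2 -0.96), with -0.09 over the rest, and -0.70 with 100 spots. It was itself enriched in L6b spots in all 3 sections (log2 2.21 over the rest, edgeR adjusted p = 1.03e-35). Ighm, the immunoglobulin mu chain gene, had the same pattern, with 80.2 in O-Ctrl against 151 in Y-Ctrl (log2 -0.88, rest -0.08) and 1.46 over the rest of the sections. The others were Zyx, Gja1 (connexin 43), Srp19, Acyp2 and Icam5, at log2 -0.86 to -0.78 with -0.08 to -0.31 over the rest.

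Of the other layer 6b genes, 7 passed the minimum and 0 reached 1.5-fold between O-Ctrl and Y-Ctrl, with a median log2 of 0.03 against -0.00 over all genes. With 1.89% of all genes past that size on the higher side and 0.868% on the lower, a count of 0 among 7 is near the background, and the spots were chosen by layer 6b genes in each section. Nxph3 had 166 CPM [142 to 193] in O-Ctrl and 166 [142 to 193] in Y-Ctrl, and Nr4a2 156 [133 to 182] and 152 [130 to 178]. Whether smaller differences exist cannot be read from 1 section a group. All 3 MHC class I pathway genes measured were higher by 1.5-fold or more (median 0.62, rest 0.43), although the intervals of H2-K1 overlapped. Both reactive astrocyte genes were also higher by that size, with Gfap at 126 and 71.4 CPM (log2 0.78, rest 1.27).

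**Figure D5:**
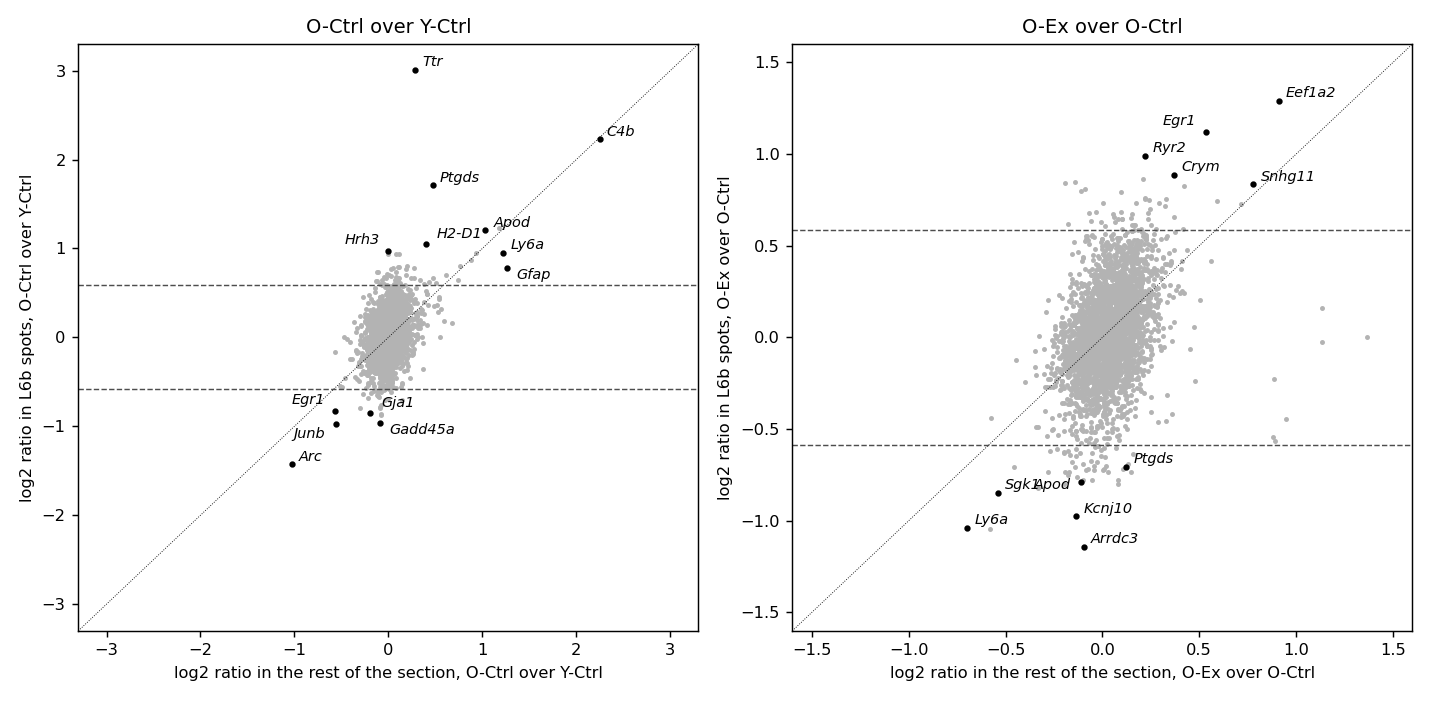
Log2 ratio between sections in L6b spots (y axis) against the same ratio in the rest of the section (x axis), 1 point a gene, for O-Ctrl over Y-Ctrl (left) and O-Ex over O-Ctrl (right). Dashed lines mark 1.5-fold, the dotted line equal ratios and black points the genes with a name. C4b lies on the dotted line at left, Hrh3 and Gadd45a lie off it near an x of 0, and Eef1a2 and Snhg11 are high on both axes at right.

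O-Ex against O-Ctrl addresses exercise. Of 3320 genes 51 (1.54%) were at least 1.5-fold higher and 55 (1.66%) lower in O-Ex L6b spots, against 11 (0.331%) and 1 (0.0301%) of the same genes over the rest. With 100 spots a section the counts were 17 and 16, and 7 of the 10 highest and 6 of the 10 lowest named genes stayed past 1.5-fold. Here too the 100 spots include the same 50. With 25 spots Uchl5 (log2 0.53), Egr3 (0.57), Lxn (0.56) and Ly6c1 (0.14) did not reach that size, and the other named genes did. Eef1a2, the elongation factor form of neurons and muscle, had 341 CPM [304 to 381] in O-Ex, against 137 [115 to 161] in O-Ctrl (log2 1.29, rest 0.91). Egr1 had 222 [192 to 254] in O-Ex, against 99.4 [81.2 to 120] in O-Ctrl (log2 1.12, rest 0.53), and Egr3 74.9 and 40.1 (log2 0.83, rest 0.42). Arc did not go with them, at 19.5 [11.6 to 30.9] in O-Ex and 27.7 [18.6 to 39.8] in O-Ctrl. Y-Ctrl, for reference, had 162, 180 and 49.2 CPM of Eef1a2, Egr1 and Egr3.

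Ryr2, the ryanodine receptor of neurons and heart, had 77.1 in O-Ex against 36.3 in O-Ctrl (log2 0.99, rest 0.22), and Crym, a deep-layer gene, 126 against 65.9 (log2 0.89, rest 0.37). Snhg11, a neuronal noncoding RNA, had 251 against 139 (log2 0.83, rest 0.78). Abcc5, Uchl5, Tmem91 and Lxn had log2 ratios of 0.86, 0.85, 0.84 and 0.81 with 0.21, -0.14, -0.19 and -0.09 over the rest, and of these Tmem91 alone stayed past 1.5-fold with 100 spots. Corticothalamic genes were on the higher side in O-Ex, with 2 of 5 past 1.5-fold and a median log2 of 0.44 against 0.13 over the rest. Rprm had 201 CPM [173 to 232] in O-Ex against 124 [104 to 147] in O-Ctrl. The 4 measured between O-Ctrl and Y-Ctrl were all lower in O-Ctrl (median log2 -0.31, rest 0.03), 0 of them by 1.5-fold. The summed level of the list was 795 CPM in O-Ex, 588 in O-Ctrl and 737 in Y-Ctrl, so O-Ctrl was below both other sections. Among 7 layer 6b genes 0 reached 1.5-fold (median log2 0.00, all genes 0.03), again near the share over all genes. Nr4a2 had 218 CPM [189 to 251] in O-Ex against 156 [133 to 182] in O-Ctrl, a log2 ratio of 0.47, with 0.44 over the rest of the section. Nxph3 had 150 [126 to 177] and 166 [142 to 193].

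Lower in O-Ex were Arrdc3, an arrestin-domain gene (31.5 CPM [21.1 to 45.2] against 75.5 [59.8 to 94.1] in O-Ctrl, log2 -1.14, rest -0.10), Ly6a (36.9 against 81.2, log2 -1.04, rest -0.70), Ly6c1 (45.6 against 99.4, log2 -1.04, rest -0.58), Kcnj10, the glial potassium channel Kir4.1 (45.6 against 94.6, log2 -0.98, rest -0.13), and Sgk1, a kinase gene induced by glucocorticoids (88.0 against 162, log2 -0.85, rest -0.54). Ly6a, Ly6c1 and Apod were thus among the highest in O-Ctrl over Y-Ctrl and among the lowest in O-Ex over O-Ctrl, comparisons that share O-Ctrl. Y-Ctrl L6b spots had 39.5, 49.2 and 602 CPM of them. The MHC class I pathway genes B2m, H2-K1 and H2-D1 were likewise lower in O-Ex than in O-Ctrl (median log2 -0.46, rest 0.15). For 1 of the 3 the difference was 1.5-fold or more. The summed level of the interferon and MHC class I list was 379 CPM in O-Ex, 539 in O-Ctrl and 302 in Y-Ctrl, so O-Ctrl was above both other sections. With 25 spots a section Ly6c1 turned to 0.14.

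Myelin genes differed in this comparison too. All 12 were lower in O-Ex than in O-Ctrl, 3 of them by 1.5-fold or more, with a median log2 of -0.47 against -0.14 over the rest. Ermn had 126 CPM in O-Ex against 211 in O-Ctrl, Mag 283 against 407 and Mbp 4167 against 4828. Of the named lower genes Pllp (plasmolipin, log2 -0.82), Anln (anillin, log2 -0.80), Apod (log2 -0.79) and Kcnj10 are known from oligodendrocytes or other glia. Without the 10 members of each section highest in myelin genes the counts were 81 higher and 49 lower. Of the glial genes just named, Kcnj10 was then at -0.42, but Pllp stayed at -0.75, Anln at -0.87 and Apod at -0.90. Arrdc3 was at -1.03, Eef1a2 at 1.31 and Egr1 at 1.06. The part of the myelin level in the remaining differences was not tested. Clic4, a chloride intracellular channel gene, was the last of the lower genes (log2 -0.78, rest -0.10).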

How the data were processed

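The deposited matrices give unnormalized UMI counts for 31053 genes at every barcode of a section. Their headers name Space Ranger 2.0.0, and the submitters' processing notes name the build mm10. Positions of spots were not used here. Members and gene lists were chosen with earlier results of these data known, and 3 alternatives were added after the data were seen. Counts were summed per section and spot set. Spot sets were compared with edgeR 4.0.16 (R 4.3.3; TMM, filterByExpr, section as block, 6 sums, 2 residual degrees of freedom), with DESeq2 1.42.0 as an alternative, leaving out the genes that chose either set. The script was tested on simulated data. Named genes were the 12 highest and 8 lowest called log2 fold changes with at least 150 counts and the same direction in 3 sections. Between sections they were the 10 highest and 10 lowest log2 ratios, and for likeness to the score the 10 highest, sex-linked genes left out. List members could be named too, and some named genes are not reported here. Of 232 listed symbols 1 was not matched. Coordinates are from GENCODE M21, counted from 1. Doublets were not called, since a spot is tissue. Sections pair the spot sets, since both come from the same library.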

Additional observations from a re-analysis of the deposited data

How the results depend on the processing

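The 3 left-out markers kept their direction and call under every alternative run, with log2 4.98 to 5.15 (Ctgf), 4.84 to 4.95 (Cplx3) and 4.21 to 4.54 (Nxph4) when each section was left out. Over the alternatives of the spot comparisons, named genes kept direction and call in 923 of 942 cases, lost the call in 18 and turned in 1 (Cbln1, 0.21 against layer 6 spots chosen with Slc17a7). Counts of calls, higher then lower, moved more, and the cause was not tested. Against the rest, each section left out gave 750 to 842 and 946 to 1010, thinning to 3000 UMIs a spot 196 and 294, DESeq2 675 lower and no replicate block 805 lower. Against layer 6 spots, each section left out gave 310 to 561 and 201 to 351 (310 and 201 without O-Ctrl), thinning 117 and 51, DESeq2 173 and 71 (70.9% higher, against 56.6%), the score without Ctgf 173 lower, 50 comparison spots 254 lower, no replicate block 238 lower and Slc17a7 added 816 and 624. Against white matter spots thinning gave 997 and 1073, and DESeq2 1789 lower. The section block changed no other count by over 1.5 times. For O-Ctrl over Y-Ctrl, 25 spots gave 121 and 88, 100 spots 37 and 17, thinning 456 and 358, a pseudocount of 20 30 and 12, a minimum of 20 CPM 276 and 128, of 100 CPM 15 and 7, a 2-fold size 6 and 1, members with all 3 markers 97 and 73, TMM 44 lower and the score without Ctgf 45 lower. The median of GABA interneuron genes, 0.39, turned to -0.80 with 100 spots, -1.08 without Ctgf and -0.36 when thinned, and that of corticothalamic genes, -0.31, to 0.053 when thinned. For O-Ex over O-Ctrl the same settings gave 117 and 119, 17 and 16, 466 and 444, 22 and 29, 295 and 182, 10 and 19, 2 and 3, and 105 and 99, and leaving out the members richest in myelin 81 higher. With 25 spots Ly6c1 turned to 0.14, the GABA interneuron median, -0.23, to 0.26, and the microglia median, 0.30, to -0.072. Taking 25 spots or thinning went with more genes past 1.5-fold, and taking 100 spots with fewer. Which spots are members changes with their number as well as the depth. No result rests on more than 1 section a group.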
